A study of Homo sapiens with 2 samples.

Results

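The enzymes that write and erase DNA methylation were examined in liver progenitors made from human embryonic stem cells. The 9 genes were chosen by symbol, not by level: the DNA methyltransferase genes DNMT1, DNMT3A, DNMT3B and DNMT3L, the dioxygenase genes TET1, TET2 and TET3, the methylation adaptor UHRF1 and the thymine DNA glycosylase TDG. Of these 9, 8 were matched to a row of the 57158 genes in the table. The Ensembl identifier of UHRF1 in GENCODE release 44 matched no row. The gene may be listed under an older identifier, which was not settled, so the level of UHRF1 was not analysed here. The study profiled poly(A) RNA by strand-specific RNA sequencing from cells of the CyT49 line, a human embryonic stem cell line. Cells at the definitive endoderm stage (day 2) received 50 ng/ml BMP4 and 10 ng/ml FGF2 in RPMI medium with 0.2% FBS, in suspension and with daily feeding, for 6 days. The libraries therefore stand for day 8, and the labels name 1 cell line and no genetic change. There was 1 group with 2 libraries and no stem cell, endoderm or adult liver sample, so levels are described and no gain or loss during differentiation can be read from them.

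DNA methylation in mammals sits mainly on the cytosine of CpG dinucleotides. DNMT3A and DNMT3B place methyl groups on unmethylated DNA, and DNMT3L, which has no catalytic activity, stimulates them. DNMT1 copies the pattern to the new strand after replication, guided by UHRF1, which recognises hemimethylated CpG. TET enzymes oxidise 5-methylcytosine with oxygen, iron and 2-oxoglutarate, and TDG excises the most oxidised products so that base excision repair can restore cytosine. Pluripotent stem cells are known for high DNMT3B, DNMT3L and TET1, and hepatocyte differentiation is accompanied by loss of methylation at many liver enhancers.

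Sequences at annotated starts are shown first, because CpG is the substrate of these enzymes and the windows of their genes differed widely in it. RefSeq windows on GRCh38.p14, each running from 250 bases before a start to 50 bases after it, existed for 8 of the 9 genes, and DNMT3L had none. These 8 genes had 19 windows. A set of 4 windows is shown. In the windows of DNMT1 (minus strand, chr19:10194904-10195203) and of UHRF1 (plus strand, chr19:4909251-4909550) capitals mark an E2F-type motif. In the densest of 6 windows of DNMT3A (minus strand, chr2:25341876-25342175) and in the window of DNMT3B (plus strand, chr20:32779602-32779901) capitals mark every CpG.
DNMT1: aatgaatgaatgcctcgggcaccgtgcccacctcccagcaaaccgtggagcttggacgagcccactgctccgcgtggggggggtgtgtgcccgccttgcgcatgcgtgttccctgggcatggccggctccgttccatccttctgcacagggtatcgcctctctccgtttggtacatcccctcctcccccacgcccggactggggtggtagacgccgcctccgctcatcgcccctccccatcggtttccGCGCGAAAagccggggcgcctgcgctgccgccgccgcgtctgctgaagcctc
UHRF1: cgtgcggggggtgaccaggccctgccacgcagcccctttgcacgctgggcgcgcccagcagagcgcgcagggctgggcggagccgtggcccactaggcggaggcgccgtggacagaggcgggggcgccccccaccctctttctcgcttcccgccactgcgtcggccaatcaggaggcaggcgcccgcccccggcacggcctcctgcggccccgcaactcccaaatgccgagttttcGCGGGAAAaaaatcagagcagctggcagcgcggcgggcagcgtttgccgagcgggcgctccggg
DNMT3A: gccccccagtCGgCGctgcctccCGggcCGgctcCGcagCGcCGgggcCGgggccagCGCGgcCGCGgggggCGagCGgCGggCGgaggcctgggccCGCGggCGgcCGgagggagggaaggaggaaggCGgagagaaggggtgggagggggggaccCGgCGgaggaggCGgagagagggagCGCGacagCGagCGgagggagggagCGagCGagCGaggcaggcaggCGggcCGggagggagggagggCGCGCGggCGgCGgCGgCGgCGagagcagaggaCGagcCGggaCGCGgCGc
DNMT3B: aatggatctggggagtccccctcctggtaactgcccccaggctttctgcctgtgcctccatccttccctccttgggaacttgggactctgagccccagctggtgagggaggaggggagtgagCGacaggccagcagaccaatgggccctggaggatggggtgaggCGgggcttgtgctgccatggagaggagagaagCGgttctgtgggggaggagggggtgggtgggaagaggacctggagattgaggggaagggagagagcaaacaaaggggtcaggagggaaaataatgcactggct

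The DNMT3A window held 46 CpG dinucleotides and the DNMT3B window 3. The median over all 35116 RefSeq windows was 14. DNMT3A had more CpG in this window than 97.1% of windows, and DNMT3B more than 18.2%. The other 5 DNMT3A windows held 18 to 28. Among the dioxygenases, TET1 was the poorest, with 6 to 11 CpG in 3 windows, TET2 had 13 and 35 in its 2 windows, and TET3 had 33 and 45. DNMT1 had 30, TDG 22, and UHRF1 36 to 46 in 3 windows. DNMT3A, whose densest window was CpG-rich, and DNMT3B, whose only window was CpG-poor, were both expressed at more than 10 RPKM in each library. The single DNMT3B window covers 1 start, and where it lies within the gene was not examined. Other starts of that gene were not examined either, so its 3 CpG do not describe the promoters of DNMT3B in general. The data do not say which annotated start the cells used, nor whether any of these CpG were methylated.

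**Figure D1:**
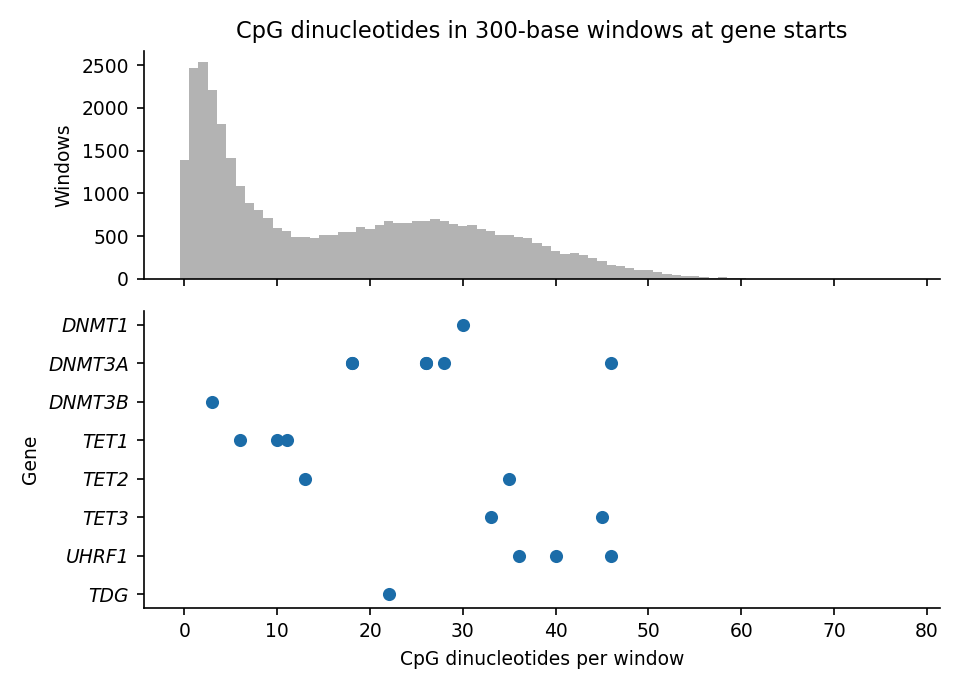
CpG dinucleotides per 300-base RefSeq window at gene starts: the upper panel counts all 35116 windows, and each point of the lower panel is a window of the named gene, with windows of equal count drawn on top of each other. DNMT3B (3 in its only window) and TET1 (6 to 11) lie below the median of 14, and DNMT3A, TET3 and UHRF1 reach 45 or 46.

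The 2 genes of the set that act together at the replication fork shared the E2F-type motif. E2F factors drive genes of DNA replication. The motifs searched were TTTCCCGC, TTTGGCGC, TTTGCCGC and TTTCGCGC on both strands. DNMT1 held GCGCGAAA, the reverse complement of the last of these, from base 249 of its window, where base 251 is the start. UHRF1 held GCGGGAAA, the reverse complement of the first, from base 237 of the window shown, and TTTCGCGC from base 91 of another window. No window of DNMT3A, DNMT3B, TET1, TET2, TET3 or TDG held one. Of all windows 3.31% did, and of all genes with a window 3.99%. Among S phase genes from a list of replication and cell cycle genes, 10 of the 16 with a window held one, among them PCNA, MCM2, MCM3, MCM7 and CDK1. The motif was not limited to that list: 5 of 21 partners and regulators of methylation and 4 of 16 methionine and folate cycle genes held one. The partners were HELLS, CDCA7, PCLAF, LIG1 and KDM1B, and the cycle genes AHCY, MTR, TYMS and SLC19A1. Replication genes placed in these lists were not counted apart. Each of the other gene lists described below held at most 1 gene with the motif. Every motif contains a CpG, and the shares over all windows and genes were not matched for CpG content. A match is a description of letters, not evidence of binding.

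The libraries were close. The step between values of genes with a single exon block gave 25182169 reads in library 1 and 25263888 in library 2. Over 780 such genes with whole read numbers, 695 of them pseudogenes, the variance between libraries was 1.107 times that of counting alone. Genes with more than 1 exon block were not part of this ratio. The libraries were counted as 1 sample. Since the labels do not say whether they came from separate cultures, the difference between them was not taken as a measure of biological variation. In the values every number under 0.5 RPKM (reads scaled to the length of the gene and to the size of the library) had been replaced by 0.1, here called the floor. The markers went with the label: 10 of 10 hepatoblast markers reached 1 RPKM in both libraries, from ALB (albumin) at 6.68 to APOA1 at 2188, while 6 of 6 mature hepatocyte markers and 6 of 6 pluripotency markers, POU5F1, NANOG and SOX2 included, were at the floor. Over all protein-coding genes, 59.8% reached 1 RPKM in both libraries and 33.8% were at the floor. For mesenchyme, 4 of 6 markers (66.7%) reached 1 RPKM, near the share of all genes. The summed level of the 6 was 19.1 RPKM in library 1 and 18.97 in library 2, with COL3A1 and DCN at the floor. Of definitive endoderm markers 2 of 6 reached 1 RPKM (summed level 7.06 and 7.46), with CER1, EOMES, GSC and MIXL1 at the floor. For endothelium, 1 of 4 matched markers did (1.90 and 1.91), with CDH5, TEK and VWF at the floor. For blood, 1 of 5 did (4.06 and 3.56), with PTPRC, HBG1, SPI1 and CD14 at the floor. The part of other cell types in the levels below was not tested, and in bulk RNA fewer cells of a type cannot be told from less RNA per cell.

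Both de novo methyltransferases and the maintenance enzyme were expressed, and the stimulating partner DNMT3L was at the floor. DNMT3A stood at 17.1 RPKM in library 1 and 16.8 in library 2, the highest of the 8 measured genes and above 88.3% of protein-coding genes. DNMT3B, the de novo enzyme known for its abundance in pluripotent cells, stood at 13.2 and 12.0 RPKM, above 83.8% of protein-coding genes. DNMT1 stood at 12.1 and 11.6 RPKM, above 82.8%. The values of DNMT3B and DNMT1 overlapped between libraries, while both DNMT3A values lay above all of theirs. DNMT3A exceeded DNMT3B 1.29-fold in library 1 and 1.40-fold in library 2, and DNMT1 1.42-fold and 1.44-fold. Rescaled to the longest coding transcript, the ratio of DNMT3A to DNMT1 was 0.965, so the order of these 2 genes depends on the length used. DNMT3L was listed under 0.5 RPKM in both libraries, as were 33.8% of protein-coding genes, and at its transcript length 0.5 RPKM stood for about 21.5 reads, so fewer reads than this would not have been shown. TRDMT1, a relative of the DNMT genes that methylates transfer RNA, was at the floor too. DNMT3B RNA was thus present in cells whose core pluripotency transcripts were all listed at the floor.

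On GRCh37 (hg19), DNMT3A (ENSG00000119772.12) lies on chromosome 2 from 25450724 to 25565459 and DNMT3B (ENSG00000088305.13) on chromosome 20 from 31350191 to 31397165. DNMT1 (ENSG00000130816.10) lies on chromosome 19 from 10244018 to 10341962 and DNMT3L (ENSG00000142182.4) on chromosome 21 from 45666222 to 45682099.

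The TET genes were lower and less even. TET1, the dioxygenase abundant in pluripotent cells, stood at 6.69 RPKM in library 1 and 6.51 in library 2, above 70.1% of protein-coding genes. TET3 stood at 5.35 and 4.95 RPKM, above 64.7%. TET2, best known as a tumour suppressor of blood cells, stood at 1.33 and 1.31 RPKM, above 42.2%. The 3 genes kept the order TET1, TET3, TET2 in both libraries, with no overlap between neighbours. TET1 exceeded TET3 1.25-fold and 1.31-fold in libraries 1 and 2, and exceeded TET2 5.02-fold and 4.98-fold. These folds rest on the gene length used: with means rescaled to the longest coding transcript, TET1 exceeded TET3 1.19-fold and TET2 3.09-fold. TET2 was the only measured gene of the set between the floor and the protein-coding median of 2.42 RPKM. TET1 (ENSG00000138336.8) lies on chromosome 10 from 70320094 to 70454244, TET2 (ENSG00000168769.8) on chromosome 4 from 106067032 to 106200973, and TET3 (ENSG00000187605.11) on chromosome 2 from 74212037 to 74335303.

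TDG, which removes the products of TET oxidation, stood at 10.1 RPKM in library 1 and 9.85 in library 2, above 79.2% of protein-coding genes. It lay between DNMT1 and TET1 with no overlap on either side. TDG (ENSG00000139372.10) lies on chromosome 12 from 104359600 to 104382652. Its processed pseudogene TDGP1, an intronless copy elsewhere on chromosome 12, was listed at 5.52 and 5.03 RPKM, so TDG exceeded its copy 1.82-fold and 1.96-fold. How reads were shared between the gene and the copy is not given in the sources used here, and the level of TDG is uncertain to that extent.

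**Figure D2:**
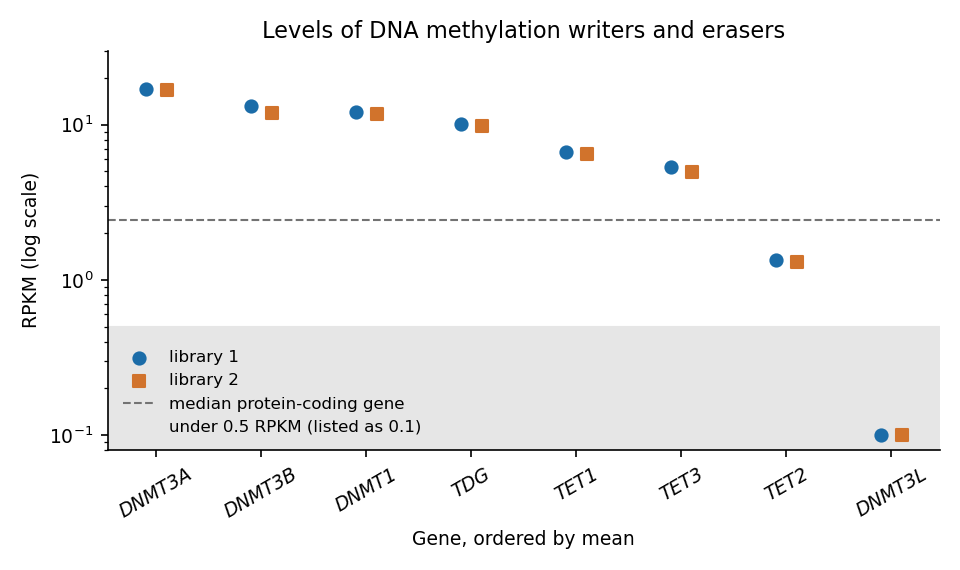
RPKM of the 8 measured genes in library 1 (circles) and library 2 (squares) on a log axis, with the median protein-coding gene (2.42 RPKM, dashed) and values under 0.5 RPKM shaded. The genes run from DNMT3A at 17.1 and 16.8 to TET2 at 1.33 and 1.31, with DNMT3L at the floor.

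In all, 7 of the 8 measured genes reached 1 RPKM in both libraries, beside 59.8% of protein-coding genes, and 3 of 8 (DNMT3A, DNMT3B and DNMT1) reached 10 RPKM in both, beside 20.2%. With 8 genes these counts are descriptions of single genes and not of a class. The median of the 8 was 8.28 RPKM, and that of protein-coding genes 2.42.

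Among the DNMT genes no single enzyme dominated. DNMT3A held 40.2% of the summed DNMT level in library 1 and 41.5% in library 2. DNMT3B held 31.1% and 29.6%, and DNMT1 28.4% and 28.7%. Together DNMT3A and DNMT3B stood 2.51-fold and 2.47-fold above DNMT1 (1.74-fold for means rescaled to the longest coding transcript). Among the TET genes, TET1 held 50.0% and 51.0%, TET3 40.0% and 38.8%, and TET2 10.0% and 10.2%. The summed DNMT level was 42.5 RPKM in library 1 and 40.5 in library 2, and the summed TET level 13.4 and 12.8, a ratio of 3.18 and 3.17 (4.91 for means rescaled to the longest coding transcript). RNA sums do not measure enzyme activity. RPKM also depends on the length assigned to a gene: rescaled to the longest coding transcript, DNMT1 held 36.4% of the DNMT sum, DNMT3A 35.1% and DNMT3B 28.3%, so the first place of DNMT3A within the family rests on the length used.

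**Figure D3:**
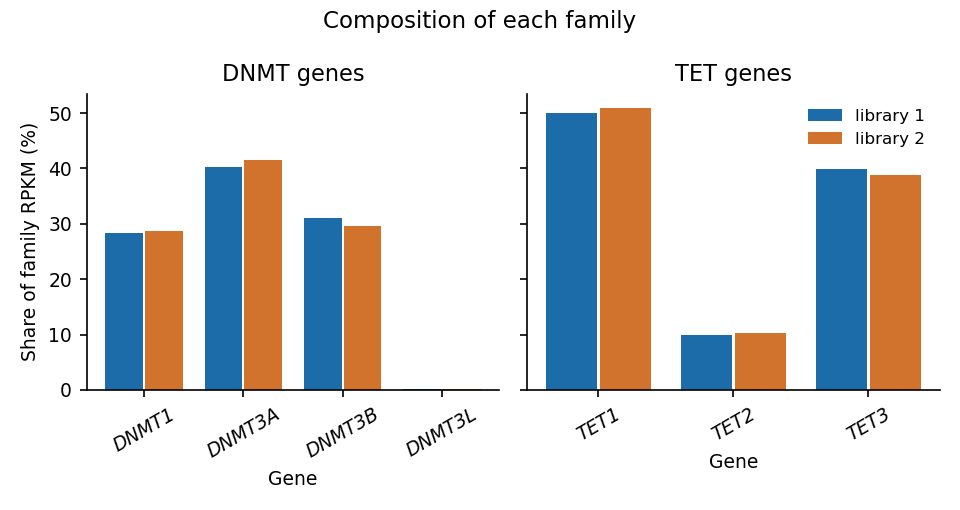
Share of the summed RPKM of the DNMT genes (left) and TET genes (right) held by each gene, in percent, with a bar for each library. DNMT3A holds 40.2% and 41.5%, DNMT3L is at the floor, and TET2 holds 10.0% and 10.2%.

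The difference between libraries was within the estimated counting error for most of the genes, and largest for DNMT3B. Reads were estimated from the longest coding transcript, which gave about 4091 reads for DNMT3A, 1455 for DNMT3B and 342 for TET2 in library 1. The length by which the values of these genes were divided is not known, so reads and counting SD rest on this choice. The rescaled ratios and shares above took all joined exons as that length instead, so these are alternative assumptions. All exons of DNMT1 joined span 15379 bases and its longest coding transcript 7157. A longer length would give more reads, a smaller counting SD and larger multiples of it. DNMT3B was 10.4% higher in library 1, which is 2.61 times the SD that counting allows. TET3 was 8.0% higher, or 2.15 times. The remaining 5 genes above the floor were 1.79% to 3.66% higher, at most 1.18 times their counting SD. All 7 lay on the same side, whereas 50.8% of the 5078 protein-coding genes between 5 and 20 RPKM were higher in library 1. The absolute difference of DNMT3B was larger than that of 94.8% of these genes and that of TET3 larger than that of 89.0%. Whether library preparation, sequencing or the assignment of reads to isoforms moved with this difference was not tested.

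**Figure D4:**
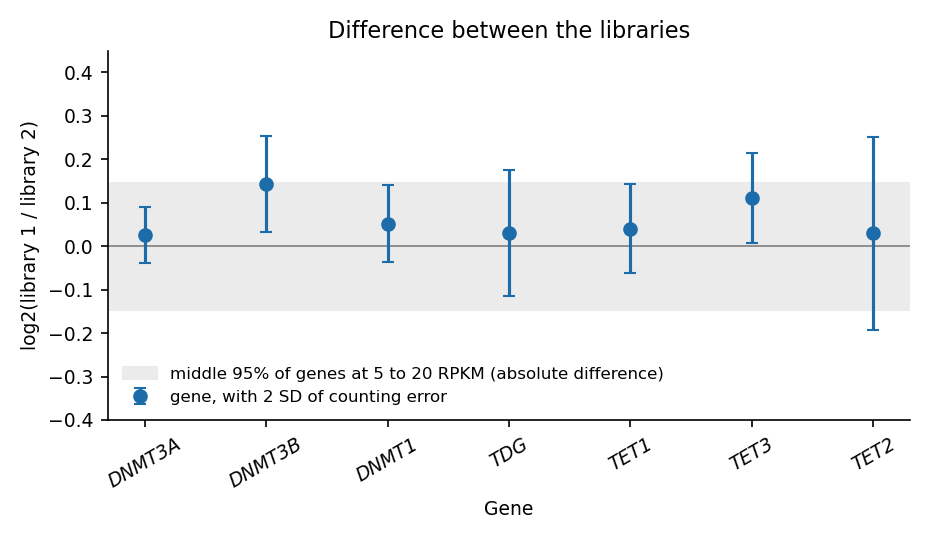
log2 ratio of library 1 to library 2 for the 7 genes above the floor, with bars of 2 SD of counting error. Reads for the bars were estimated from the longest coding transcript. The shaded band spans the absolute difference that 95% of protein-coding genes at 5 to 20 RPKM stay within (0.15), and DNMT3B at 0.14 and TET3 at 0.11 are the points whose bars leave 0.

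Genes that overlap these loci or are named after them were mostly at the floor: 13 were found and 9 of these held 0.1 in each library. Those at the floor included the antisense genes TET2-AS1 and DNMT3L-AS1 and the pseudogenes DNMT3AP1 and TET1P1. The 4 above it were TDGP1, S1PR2, COX20P1 and an unnamed lncRNA. S1PR2, a sphingosine phosphate receptor gene on the same strand whose annotated span overlaps DNMT1, stood at 9.76 and 7.91 RPKM. COX20P1, a pseudogene inside TET1 on the same strand, stood at 4.80 and 3.56 RPKM. The lncRNA ENSG00000235499.1, on the TET3 strand from 74212259 to 74213470 of chromosome 2, close to the annotated TET3 start, stood at 2.19 and 2.33 RPKM. Reads of overlapping genes on the same strand cannot be separated with a gene table, so the levels of DNMT1, TET1 and TET3 carry this uncertainty.

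The partners of the methyltransferases were broadly expressed. Of 22 partners and regulators of maintenance and de novo methylation, 20 reached 1 RPKM in both libraries (90.9%, beside 59.8% of protein-coding genes), with a median of 7.81 RPKM. The highest were TRIM28, the corepressor that recruits methylation to retroelements and imprints, at 139 and 137 RPKM, KDM1A, a histone demethylase, at 53.8 and 54.2, HDAC1 at 34.5 and 34.4, and EHMT2, a histone H3 lysine methyltransferase, at 24.6 and 24.0. The lowest were KDM1B at 1.73 and 1.77, DPPA3, which inhibits UHRF1 in germ cells and early embryos, at 0.914 and 1.14, and ZFP57, which protects imprints, at the floor. TRIM28 was thus listed high while ZFP57, a zinc finger partner of it, was listed at the floor.

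The genes that modulate TET enzymes or bind their products were also mostly detected. Of 9, 8 reached 1 RPKM, beside 59.8% of protein-coding genes, with a median of 11.7 RPKM. OGT, the glycosyltransferase that binds TET proteins, stood at 29.9 and 30.2 RPKM, CXXC5 at 28.5 and 28.3, DDB1 at 27.4 and 27.5, and SALL4, which binds oxidised methylcytosine, at 24.5 and 24.6. CXXC4, the gene next to TET2 whose protein lowers TET2 protein, stood at 11.7 RPKM in both libraries, above TET2 itself at 1.33 and 1.31. DCAF1 at 6.79 and 6.41, WDR76 at 1.96 and 1.98, and WT1, which recruits TET2, at the floor were the lowest. CXXC4 was named after its values were seen.

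Genes that supply or consume the TET cosubstrate 2-oxoglutarate, the inhibitors succinate and fumarate, and ascorbate were all expressed. Of these, 16 of 16 reached 1 RPKM, beside 59.8% of protein-coding genes, with a median of 13.6 RPKM. The isocitrate dehydrogenases IDH2 (59.5 and 60.6 RPKM) and IDH1 (40.4 in both), GLUD1 (56.8 and 56.9) and fumarate hydratase FH (31.7 and 32.5) were the highest. IDH3A (3.75 and 3.47) and the ascorbate transporter SLC23A1 (2.87 and 2.92) were among the lowest.

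Other glycosylases and genes of base excision repair were likewise all detected, 12 of 12, beside 59.8% of protein-coding genes, with a median of 7.48 RPKM. APEX1, the endonuclease that follows TDG, stood at 80.5 and 80.7 RPKM, PARP1 at 33.7 and 33.5, the uracil glycosylase UNG at 19.9 and 18.6, and the scaffold XRCC1 at 16.5 and 16.1. The glycosylases NEIL2 (3.38 and 3.21), NEIL1 (1.81 and 2.09) and NEIL3 (1.66 and 1.85) were the lowest. TDG at 10.1 and 9.85 RPKM lay below UNG and above each NEIL gene in both libraries. Deaminases have been proposed as another route of demethylation. Of 14 deaminase and GADD45 genes 5 reached 1 RPKM, beside 59.8% of protein-coding genes. At the floor were 7, APOBEC1 and APOBEC2 among them, beside 33.8% of protein-coding genes. The GADD45 genes all reached 1 RPKM, and of the deaminases only APOBEC3C and APOBEC3F did. The highest of the 14 were GADD45A (10.9 and 11.5 RPKM), GADD45B (7.19 and 6.30), APOBEC3C (4.12 and 4.64) and APOBEC3F (1.48 and 1.40).

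Of 9 genes of the MBD family and the methyl-CpG zinc finger proteins 8 reached 1 RPKM, beside 59.8% of protein-coding genes. Their median was 6.39. Not all of them read the mark: MBD3 does not selectively bind methylated CpG, and MBD5 and MBD6 do not bind methylated DNA. MBD3, a subunit of the NuRD complex, was the highest at 25.6 and 24.9 RPKM, followed by MBD6 (12.3 and 12.6), the methyl-CpG binding protein MBD1 (10.3 and 9.48) and the methyl-CpG zinc finger protein ZBTB4 (9.17 and 9.51), and MBD5 (2.25 and 2.47) and ZBTB38 (0.904 and 0.956) were lowest. All 5 matched proteins that bind unmethylated CpG reached 1 RPKM, with FBXL19 at 22.1 and 21.2, KDM2A at 14.0 and 14.2 and CXXC1 at 9.41 and 9.03. KDM2B stood at 5.22 and 5.37 and KMT2A at 5.33 and 5.21.

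The methyl donor of the DNMT enzymes is S-adenosylmethionine. Of 22 genes of the methionine and folate cycles 18 reached 1 RPKM, beside 59.8% of protein-coding genes, with a median of 4.81. AHCY, which hydrolyses the inhibitory product S-adenosylhomocysteine, stood at 150.02 and 152 RPKM, higher than every DNMT and TET gene. Of the enzymes that make the donor, MAT2A, the form of fetal and dividing cells, stood at 47.7 and 48.0 RPKM, and MAT1A, the form of adult liver, at 5.08 and 4.98 (named after its values were seen). AHCYL1 (47.5 and 47.7) and CBS (31.6 and 31.1) were also high. GNMT, which consumes S-adenosylmethionine in adult liver, was at the floor, as were NNMT and BHMT2.

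DNMT1 works at the replication fork. Replication and cell cycle genes were detected in 18 of 19 cases, beside 59.8% of protein-coding genes, with a median of 16.3 RPKM. PCNA, the clamp that binds DNMT1, stood at 48.9 and 50.7 RPKM, MCM3 at 44.6 and 43.7, TOP2A at 40.5 and 40.9 and MCM7 at 38.4 and 37.99. CCNE2 was at 0.594 RPKM in library 1 and at the floor in library 2, and POLA1 (4.02 and 3.98) and CDC6 (4.85 and 5.19) were the next lowest. DNMT1, at 12.1 and 11.6 RPKM, lay within the range of this list and below its median.

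Germline genes whose CpG-rich starts are known to be methylated in somatic cells were all at the floor, 21 of 21, among them DAZL, DDX4, MAEL and SYCP3. Of protein-coding genes as a whole 33.8% were at the floor. The RNA table does not show whether the starts of these genes were methylated.

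**Figure D5:**
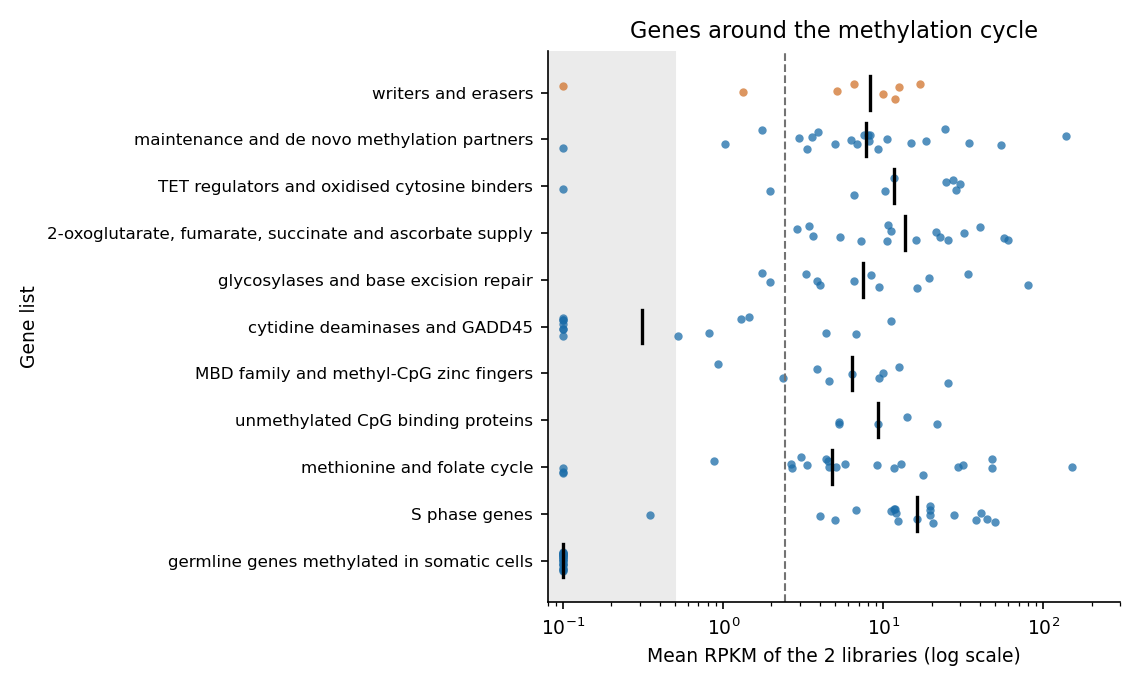
Mean RPKM of each gene on a log axis, by list, with the list median as a black bar, the protein-coding median (2.42 RPKM) dashed and values under 0.5 RPKM shaded. The germline list lies wholly at the floor and the deaminase and GADD45 list mostly low. The other lists drawn, apart from the writers and erasers, have medians from 4.81 to 16.3 RPKM.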

How the data were processed

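Poly(A) RNA libraries of day 8 liver progenitors (1 group, 2 libraries) were used. The deposited values are RPKM per Ensembl gene, as the authors normalized them. Per the series description the build was hg19 and expression came from Sailfish. The tools in the submitters' processing notes are STAR 2.3.0e, Cufflinks 2.2.0 and FastQC 0.10.1. Which tool gave the RPKM is not given in the sources used here. Of 57158 identifiers, 54428 (95.2%) matched GENCODE release 44 on GRCh37 without their version. Detected means that both libraries reached 1 RPKM, and percentiles are over 19344 protein-coding symbols. Reads behind the normalization were found from genes of 1 exon block, of which 80.6% of those under 500 reads were whole within 0.02 of a read. In simulated libraries counting error alone gave a variance ratio of 0.965, and an added spread of 10% gave 2.81. With 1 group no test between groups was made, and no count model was used.

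The members and lists were chosen with earlier results of these data known. Named genes are all members, genes overlapping or named after them, the 4 highest and 3 lowest of each list, and the markers. A few genes under this rule are counted in their lists but not reported here. Of the listed genes KMT2B and PECAM1 were not matched, and G6PC was matched as G6PC1. Promoter windows are RefSeq's (GRCh38.p14). Alternatives were other detection limits, each library alone, another pseudocount, a filter on low values, another value for the floor and another gene length. Python 3.11.15, pandas 2.3.3 and numpy 2.4.6 were used.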

Additional observations from a re-analysis of the deposited data

How the results depend on the processing

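The count of members detected was 7 at limits of 0.5 and 1 RPKM and 5 at 5 RPKM, and 7 with either library alone. The span from TET2 to DNMT3A was 2.95 on the log2(RPKM + 1) scale and 3.58 with a pseudocount of 0.1. With the floor set to 0.5 RPKM, the share of DNMT1 in its family was 28.3%. Rescaling from all joined exons to the longest coding transcript changed the shares within families. DNMT1 moved to 36.4%, DNMT3A to 35.1%, DNMT3B to 28.3%, TET1 to 46.3% and TET2 to 15.0%, which put DNMT1 above DNMT3A. Among detected genes alone the percentile of each of the 7 genes above the floor fell, that of TET2 to 3.47. At 5 RPKM the count fell by more than 1.5 times in 4 lists. These were glycosylases and base excision repair (7), deaminases and GADD45 (2), the MBD family and methyl-CpG zinc fingers (5) and the methionine and folate cycle (10). No paired analysis was possible because there is 1 group. Depth limits DNMT3L and the germline genes, whose values under 0.5 RPKM are not shown.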
